A study of Mus musculus with 12 samples.

Results

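Retinoic acid is the signalling form of vitamin A, and 9 genes that make, carry, degrade and sense it were followed in embryonic mouse kidneys, wild type or mutant for Hoxa and Hoxc genes 9 to 11. The genes were Aldh1a1, Aldh1a2, Aldh1a3, Crabp1, Crabp2, Cyp26b1, Rara, Rarb and Rarg, found by their symbols among the 36186 genes listed, and all 9 were kept by the filter on low counts in every comparison. RNA was sequenced from whole kidneys at E18.5, with 3 libraries in each of 4 groups labelled by genotype, on a mixed strain background. Wild type kidneys are called Wt. By their labels, AkCh kidneys were Hoxa9,10,11-/- HoxC9,10,11+/-, AhCk kidneys were Hoxa9,10,11+/- HoxC9,10,11-/-, and AkCk kidneys were Hoxa9,10,11-/- HoxC9,10,11-/-. All 3 mutant groups therefore carried mutant alleles of both clusters, and no group had mutant alleles of 1 cluster alone. The mutations were germline frameshifts in the coding sequence. Transcripts of the targeted genes were still counted in AkCk, so the RNA level of a Hox gene did not test its genotype. Hoxa10 and Hoxc10 were lower in AkCk than in Wt, with log2 fold changes of -0.49 and -0.78. Their adjusted p-values by edgeR were 0.0270 and 0.0127. Hoxa9, Hoxa11, Hoxc9 and Hoxc11 did not pass the threshold of 0.05. The labels give AkCk as lacking Hoxa11, but the study reports no detectable kidneys at E18.5 in mutants of that genotype. Its text describes the sequenced compound mutants as Hoxa9,10-/-11+/- or Hoxa9,10-/-11+/+, with HoxC9,10,11-/-. By that text AkCk kept wild type Hoxa11 alleles and pooled more than 1 genotype. Which library carried which genotype was not told. The labels name separate animals, and nothing in them names a litter.

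Retinol is taken up by cells, oxidised to retinal by retinol dehydrogenases and then to retinoic acid by the retinal dehydrogenases of the Aldh1a family. Retinoic acid is carried in the cytoplasm by the Crabp proteins, is removed by the Cyp26 hydroxylases, and acts through the receptors Rara, Rarb and Rarg, which bind DNA with an Rxr partner. In the developing kidney, retinoic acid made largely in the stroma is known to maintain expression of the receptor tyrosine kinase gene Ret in the ureteric bud and so to sustain branching.

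Total counts ranged from 28616878 to 47067926 per library. Sequencing run and genotype were partly confounded. AhCk was sequenced in run1646 and the remaining 9 libraries in run1008, so in AhCk against Wt the genotype and the run cannot be told apart. Library AkCh_20 stood apart. It had the lowest total, and 3440 genes in it differed by more than 2-fold from the mean of the other 2 AkCh libraries. Its summed level of 6 cap mesenchyme markers was 401 CPM, against 188 to 275 CPM in the other AkCh and the Wt libraries, and its 6 proximal tubule markers summed to 423 CPM, against 1012 to 3096 CPM. CPM is the count scaled to 1e+06 reads per library after TMM scaling. The kidney markers were present in all libraries, with the 6 podocyte markers summing to 765 to 1829 CPM. The sexes were not balanced. Y-linked transcripts were found in all Wt libraries, in AkCh_20, AhCk_38, AhCk_115 and AkCk_24, and Xist was at 60.1 CPM or more in the other 5 libraries. The nuclear RNA Malat1 was at 99.3 to 119 CPM in Wt and 28.6 to 44.2 CPM in AkCk, and its part in the AkCk results was not tested.

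The genes lie on 8 chromosomes of mm10, and their RefSeq positions are given because Rarg and Cyp26b1 each share a chromosome with a mutated cluster. Aldh1a1 spans chr19:20492583-20643463, Aldh1a2 chr9:71215789-71296243 and Aldh1a3 chr7:66390892-66427477. Crabp1 spans chr9:54764748-54773110, Crabp2 chr3:87948693-87953372 and Cyp26b1 chr6:84571414-84593908. Rara spans chr11:98927800-98974942, Rarb chr14:16430839-17082331 and Rarg chr15:102234938-102257522. Rarg lies 664 kb from Hoxc13, the nearest gene of the Hoxc cluster. Cyp26b1 is on the chromosome of the Hoxa cluster, 32311 kb from Hoxa13. All 9 are protein-coding genes, and the counts cover whole genes, so no exon or isoform is resolved.

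Receptor heterodimers bind direct repeats of a consensus half-site, with a spacer of 1, 2 or 5 bases (DR1, DR2 and DR5), and DR5 is the classic retinoic acid response element. RefSeq promoter windows of GRCm38.p6, from 250 bases before to 50 after a start site, were matched for 7 of the 9 genes, all but Aldh1a3 and Crabp2. All 3 repeats were searched on both strands. DR5 was found in 32 of 32851 windows, or 0.0974%, DR1 in 0.222% and DR2 in 0.268%. Of the 7 genes searched only Rarb had a match, a DR5. In the wider pathway list Cyp26a1, which encodes a retinoic acid hydroxylase, also had a DR5, and Bco1 had a DR1. The Rarb and Cyp26a1 elements are shown because they are the matches in genes whose RNA is a common readout of retinoic acid. Each is written 5′ to 3′ on the strand of its gene, with 6 bases of flank and the element in capitals.
Rarb, chr14:16575507-16575535, minus strand: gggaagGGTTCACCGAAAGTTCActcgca
Cyp26a1, chr19:37697770-37697798, plus strand: taaagaTGAACTTTGGGTGAACTaatttg
The Rarb repeat ended 36 bases before the RefSeq start site. The Cyp26a1 repeat is read on the opposite strand and lay 15 bases before the start. Both stretches overlap an annotated GENCODE exon of their gene. No binding was measured, and a match describes the letters only.

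Aldh1a2, which encodes the main retinal dehydrogenase of embryonic stroma, had the highest level per exon length of the 9 genes. In Wt it averaged 123 CPM per kb of exon. Crabp2 followed at 23.1, Aldh1a3 at 18.6, Rarb at 15.2, Rarg at 14.9 and Rara at 12.5 CPM per kb. Crabp1 at 8.19, Aldh1a1 at 6.77 and Cyp26b1 at 4.60 CPM per kb were the lowest. Of the neighbours in this order, Rarb (14.3 to 15.7 CPM per kb) and Rarg (13.6 to 16.3) overlapped between Wt libraries, as did Crabp1, with its lowest at 6.57, and Aldh1a1, with its highest at 7.18. The other neighbours did not overlap in Wt, with the lowest Crabp2 library at 20.1 and the highest Aldh1a3 library at 19.8 CPM per kb. Exon length is the union of all annotated exons, so the order also depends on which transcripts are made. Aldh1a2 supplied 80.8% to 92.5% of the summed Aldh1a level per length in each of the 12 libraries.

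**Figure D1:**
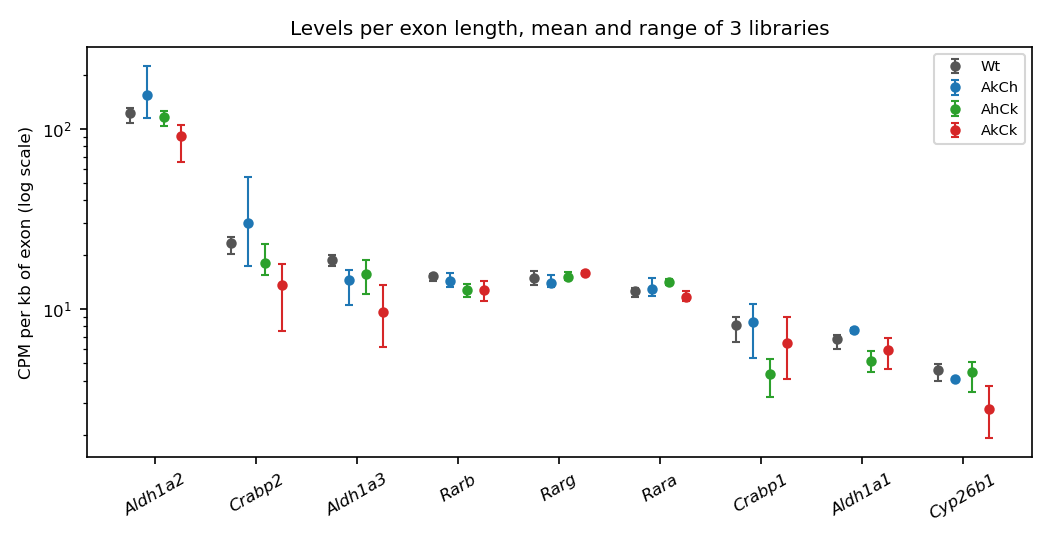
Level of each gene in CPM per kb of exon on a log axis, with points for the mean and bars for the range of 3 libraries in each genotype. Aldh1a2 lies above every other gene in all 4 genotypes, and Cyp26b1 has the lowest mean in Wt, AkCh and AkCk.

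The comparison of AkCk with Wt asked what changed in the mutant labelled as homozygous in both clusters, although the study's text gives it wild type Hoxa11 alleles. Aldh1a3, a retinal dehydrogenase gene, fell 1.93-fold. It was the 1 gene of the 9 that passed the test, an edgeR quasi-likelihood test adjusted over all genes with a threshold of 0.05. Among all 15839 genes tested, 13.7% passed, 6.31% with a higher and 7.40% with a lower level in AkCk. Aldh1a2, Cyp26b1 and Crabp2 had no overlap between the groups and lower values in AkCk, but they did not pass. With Aldh1a3 these are 4 of 9 genes without overlap. Among all genes tested 38.1% had no overlap, and 20.8% had none and were lower in AkCk. The median log2 fold change of the 9 genes was -0.33, against -0.01 over all genes tested.

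None of the 9 genes passed in the other comparisons. In AkCh against Wt 0% of 15789 genes passed edgeR's test, while 360 genes, or 2.28%, had an unadjusted p under 0.05 and DESeq2 called 18. In AhCk against Wt 2.36% of 15902 genes passed, 0.836% higher and 1.53% lower in AhCk, and none of the 9 was among them by edgeR, while DESeq2 called 1 of them. At an unadjusted p under 0.05 there were 4 of the 9, Aldh1a1, Rara, Rarb and Crabp1, against 21.1% of all genes. In AkCk against AkCh 0% of 15764 genes passed edgeR's test on the 6 libraries, with 1787, or 11.3%, at an unadjusted p under 0.05 and 489 called by DESeq2. The unadjusted p of each of the 9 genes was above 0.05 in both comparisons with AkCh. The median log2 fold changes of the 9 genes in these 3 comparisons were 0.05, -0.23 and -0.36, against 0.03, 0.01 and -0.01 over all genes. AkCk against Wt, AkCh against Wt and AhCk against Wt share the Wt libraries, and so their values are not independent.

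**Figure D2:**
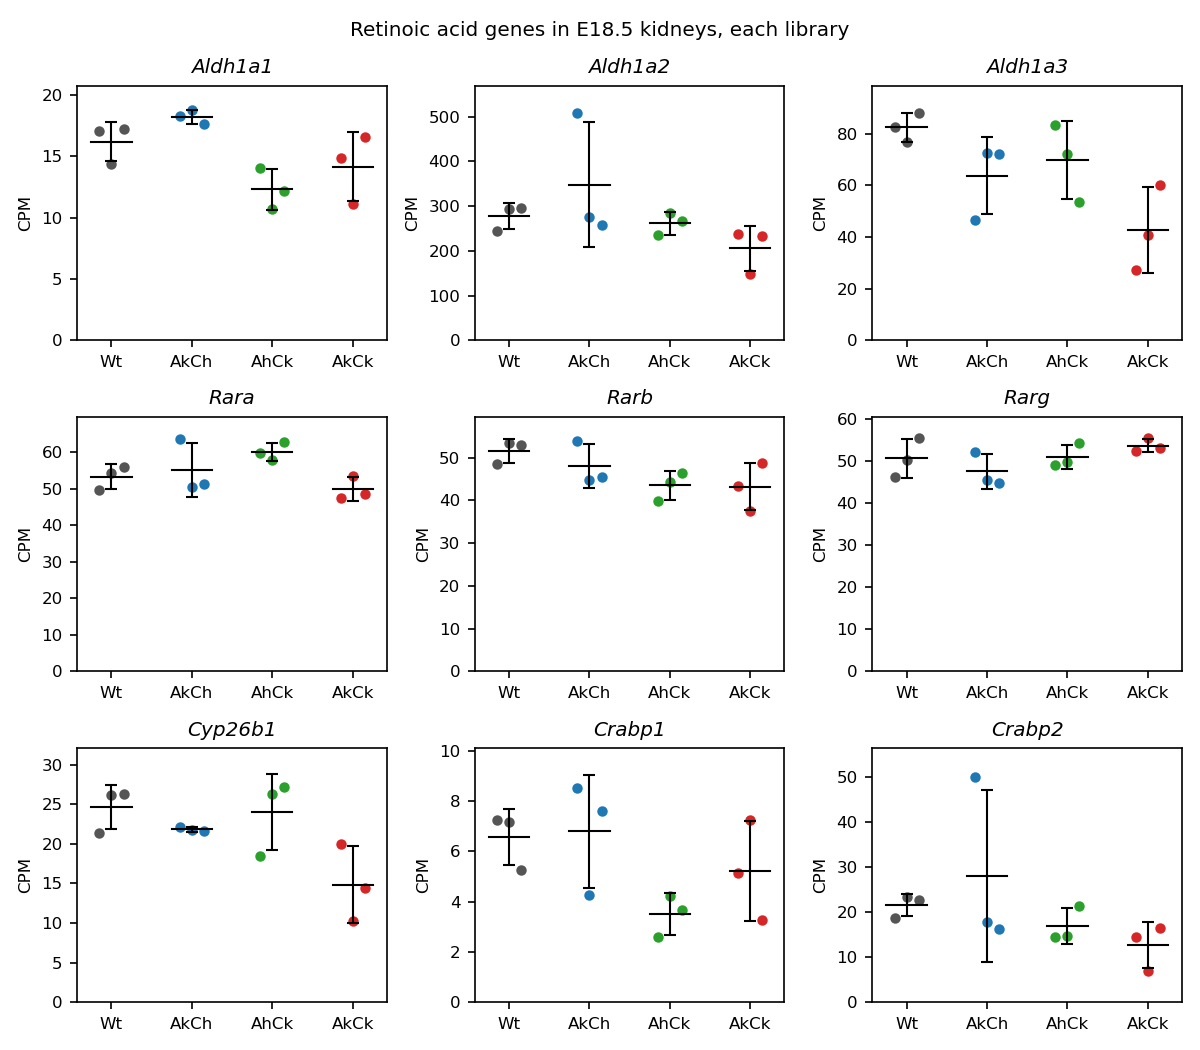
CPM of each of the 9 genes in each library, by genotype. Dots are libraries in order of animal number, the long line is the mean and the bar is the SD of 3 libraries. The AkCk libraries of Aldh1a3, Aldh1a2, Cyp26b1 and Crabp2 all sit below the Wt libraries, and AkCh_20 sits far above its group for Aldh1a2 and Crabp2.

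Aldh1a3 makes retinoic acid from retinal and is known from ureteric epithelium in the kidney. Its level was 82.5, 76.8 and 88.0 CPM in Wt, and 27.2, 40.8 and 60.3 CPM in AkCk_24, AkCk_27 and AkCk_29. Every AkCk library was below every Wt library, and AkCk_24 was the lowest of all 12 libraries. The means were 82.4 ± 5.58 CPM in Wt and 42.8 ± 16.6 CPM in AkCk (SD, n = 3 each), with a log2 fold change of -0.95 ± 0.25 (SE) and an adjusted p of 0.0437 by edgeR. In whole kidneys, fewer cells of a type and less RNA per cell cannot be told apart. The study also lists Aldh1a3 among genes it chose on these samples, so this is not independent evidence of its direction. The direction held in every alternative run, with log2 fold changes from -1.28 to -0.71. The call was lost in 3 of the 8 other settings, the fit of all 12 libraries, limma and the fit of the 9 libraries of run1008, with adjusted p-values of 0.0606, 0.0854 and 0.0982. It also depended on single libraries, since the adjusted p was 0.0112 without AkCk_29 and 0.0549 to 0.130 without any of the other 5 libraries.

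In AkCh the Aldh1a3 level was 46.4, 72.6 and 72.2 CPM. All were below the lowest Wt library, and the log2 fold change was -0.37 ± 0.19 with an unadjusted edgeR p of 0.0940. Without AkCh_20, the lowest of them, it was -0.19 ± 0.08. In AhCk the level was 83.3, 72.3 and 53.5 CPM, which overlapped Wt, with a log2 fold change of -0.23 ± 0.15. AkCk and AkCh differed by -0.56 ± 0.31, and their libraries overlapped at 60.3 CPM in AkCk_29 and 46.4 CPM in AkCh_20. With a library left out this difference ran from -0.89 to -0.31. The order of the means was Wt, AhCk, AkCh and AkCk. By the overlap of libraries, no neighbours in this order were separated.

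The level of Aldh1a3 was set beside markers of the collecting duct, the ureteric tip, the stroma, the cap mesenchyme and podocytes. The 8 collecting duct markers summed to 692 to 781 CPM in Wt and 552 to 660.0 CPM in AkCk, and 2 of the 8, Gata3 and Wnt9b, fell. Aldh1a3 was 11.1% to 11.3% of that sum in the Wt libraries and 4.93%, 6.18% and 9.55% in AkCk_24, AkCk_27 and AkCk_29. It was 10.0% to 12.2% in AhCk, 10.6% and 11.5% in AkCh_31 and AkCh_33, and 6.53% in AkCh_20. The 6 ureteric tip markers summed to 211 to 259 CPM in Wt and 96.1 to 155 CPM in AkCk, and 5 of the 6 fell. The 8 stroma markers summed to 1648 to 1759 CPM in Wt and 4482 to 5332 CPM in AkCk, and 6 of the 8 rose. The 6 cap mesenchyme markers summed to 191 to 275 CPM in Wt and 56.3 to 158 CPM in AkCk, and 3 of the 6, Cited1, Gdnf and Meox1, fell. The 6 podocyte markers summed to 1191 to 1269 CPM in Wt and 1481 to 1829 CPM in AkCk, and 4 of the 6 rose. The study's list from these samples holds Wnt11 and Etv4 of the tip markers, Lum, Dcn, Col1a1 and Postn of the stroma markers, and Six2, Cited1, Eya1 and Gdnf of the cap mesenchyme markers, so their directions are not independent evidence. The part of these marker levels in the Aldh1a3 result, and in the AkCk values of Aldh1a2, Crabp2 and Cyp26b1, was not tested.

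The genes whose pattern over the 12 libraries was most like that of Aldh1a3, among 16260 genes kept, were Wnt9b and Spag1. Their mean absolute difference from Aldh1a3 in centred log2 CPM was 0.15 and 0.16, where the mean absolute deviation of Aldh1a3 itself was 0.40. Wnt9b, a Wnt ligand gene of the collecting duct, was at 36.1, 31.9 and 40.2 CPM in Wt and averaged 23.7 CPM in AkCk. Spag1 was at 3.00, 2.86 and 4.11 CPM in Wt and 1.28, 1.58 and 2.39 CPM in AkCk. These libraries share the same contrast, so the likeness is a description.

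**Figure D3:**
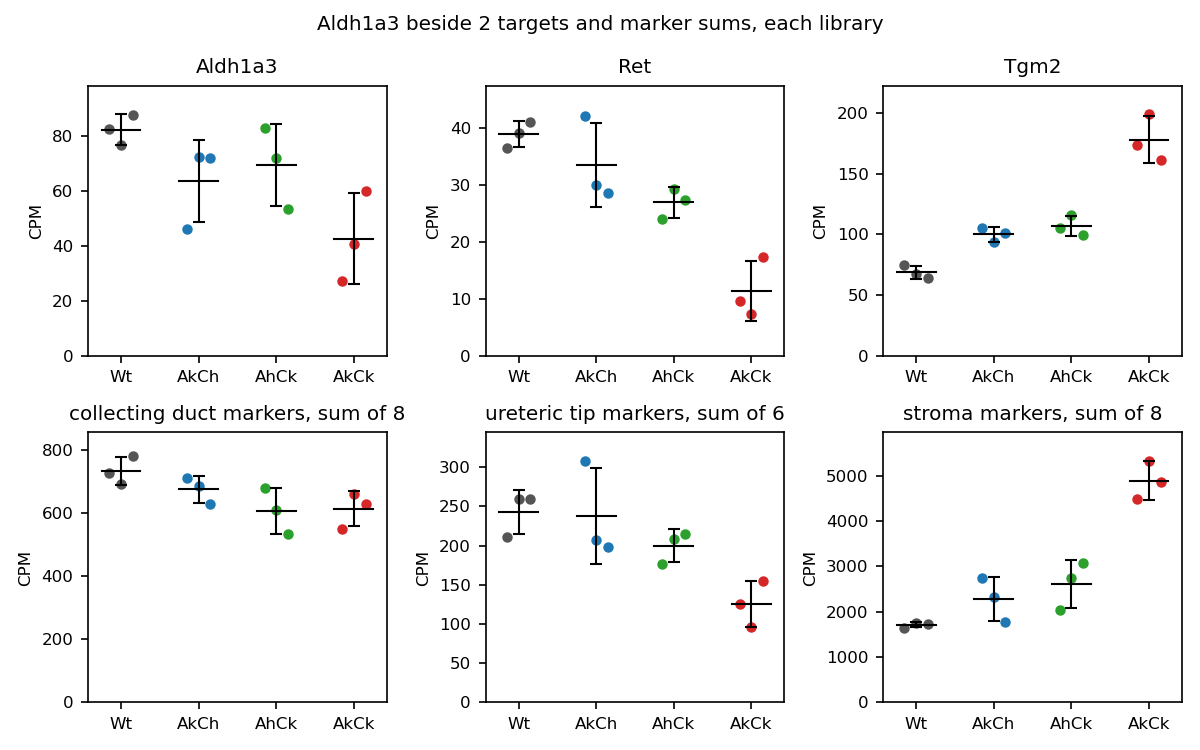
CPM in each library of Aldh1a3, of the retinoic acid targets Ret and Tgm2, and of the summed collecting duct, ureteric tip and stroma markers, by genotype. Lines are means and bars are SD of 3 libraries. AkCk has the lowest Aldh1a3, Ret and tip marker means and the highest Tgm2 and stroma marker means.

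Aldh1a2 had the highest level of the 3 retinal dehydrogenases. It was at 245, 293 and 296 CPM in Wt and 237, 148 and 232 CPM in AkCk. The groups did not overlap, but AkCk_24 lay close to Wt_30. The log2 fold change was -0.43 ± 0.18 with an adjusted p of 0.139 by edgeR. It ran from -0.50 to -0.24 in the 8 other settings and from -0.55 to -0.24 with a library left out, and never passed. In AkCh the level was 508, 277 and 257 CPM, and AkCh_20 alone was above the Wt range. The log2 fold change of AkCh against Wt was 0.32 ± 0.28 with all libraries and -0.06 ± 0.11 without AkCh_20, and neither passed. AkCk against AkCh gave -0.74 ± 0.32, and -0.35 ± 0.20 without AkCh_20. In AhCk the level was 235, 285 and 266 CPM, overlapping Wt, with a log2 fold change of -0.08 ± 0.11.

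Aldh1a1, the third retinal dehydrogenase gene, was at 17.1, 14.4 and 17.2 CPM in Wt and 14.8, 11.1 and 16.5 CPM in AkCk, which overlapped. In AkCh it was at 18.3, 18.7 and 17.6 CPM, all just above Wt, with a log2 fold change of 0.17 ± 0.12. In AhCk it was at 14.0, 10.7 and 12.2 CPM, all below Wt, with a log2 fold change of -0.39 ± 0.13 and an adjusted p of 0.160 by edgeR. The groups without overlap in AkCh against Wt were those of Aldh1a1 and Aldh1a3, or 2 of 9 genes, where 8.35% of all genes had none, 3.58% with higher and 4.77% with lower values in AkCh. Aldh1a7, a close paralog of Aldh1a1 that shares sequence with it, ranged from 5.97 to 22.3 CPM over the 12 libraries. Reads that align to both were removed before counting, so the level of Aldh1a1 is uncertain to that extent. The annotated span of a gene on the opposite strand also overlaps exon sequence of Aldh1a1. Whether counting used strand is not given in the sources used here.

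Crabp2, which carries retinoic acid towards its receptors in the nucleus, was at 18.7, 23.2 and 22.6 CPM in Wt. In AkCk it was at 14.5, 6.98 and 16.6 CPM, and AkCk_27 was the lowest of the 12 libraries. The groups did not overlap, with a log2 fold change of -0.76 ± 0.28 and an adjusted p of 0.111 by edgeR. DESeq2 gave an adjusted p of 0.0318. In AkCh the level was 50.02, 17.8 and 16.2 CPM, so AkCh_20 was above Wt while the other 2 were below it. The log2 fold change against Wt was 0.38 ± 0.45 with AkCh_20 and -0.35 ± 0.13 without it. AkCk against AkCh gave the largest fitted difference of the 9 genes in any comparison, -1.12 ± 0.53, with an adjusted p of 0.492, and -0.40 ± 0.33 without AkCh_20. In AhCk the level was 14.4, 14.7 and 21.4 CPM, which overlapped Wt, with a log2 fold change of -0.34 ± 0.17.

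Crabp1, the other cytoplasmic carrier of retinoic acid, had the fewest counts of the 9 genes, from 89 to 311 per library. It was at 7.27, 7.17 and 5.27 CPM in Wt and 2.61, 4.24 and 3.69 CPM in AhCk. Each AhCk library was below each Wt library, with a log2 fold change of -0.89 ± 0.22 and an adjusted p of 0.0874 by edgeR. DESeq2 gave an adjusted p of 0.00574 for the same difference, and no other setting passed. In AkCk the level was 5.15, 7.24 and 3.27 CPM and in AkCh 8.54, 4.27 and 7.60 CPM, and both overlapped Wt. The groups without overlap in AhCk against Wt were those of Crabp1, Aldh1a1, Rarb and Rara, or 4 of 9 genes, where 26.7% of all genes had none. The ratio of Crabp2 to Crabp1 per exon length ran from 2.22 to 3.70 in Wt and from 0.831 to 4.37 in AkCk.

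Cyp26b1 encodes the hydroxylase that clears retinoic acid in many embryonic tissues. It was at 21.4, 26.2 and 26.3 CPM in Wt and 19.96, 10.2 and 14.4 CPM in AkCk. The groups did not overlap, with AkCk_24 closest to Wt_30. The log2 fold change was -0.73 ± 0.23 with an adjusted p of 0.0686 by edgeR. The adjusted p was 0.0115 by DESeq2 and 0.0351 without AkCk_24. In AkCh the level was 22.1, 21.8 and 21.6 CPM, within the Wt range. AkCk lay below AkCh in every library, with a log2 fold change of -0.54 ± 0.24 and an adjusted p of 0.477. In AhCk the level was 18.53, 26.3 and 27.2 CPM, and AhCk_38 was below all Wt libraries while the other 2 were not.

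None of the 3 receptor genes passed in any comparison, and their log2 fold changes ran from -0.26 to 0.19. Rara was at 49.5, 54.4 and 56.0 CPM in Wt and 47.5, 53.5 and 48.6 CPM in AkCk, with a log2 fold change of -0.10 ± 0.08. It was at 59.7, 58.0 and 62.8 CPM in AhCk, all above Wt, with a log2 fold change of 0.18 ± 0.07 and an adjusted p of 0.206 by edgeR. In AkCh it was at 63.6, 50.4 and 51.3 CPM.

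Rarb, which carries the DR5 element printed above and is itself a known target of retinoic acid, was at 48.4, 53.3 and 52.9 CPM in Wt. It was at 43.5, 37.6 and 48.7 CPM in AkCk, where AkCk_29 overlapped Wt_30. The log2 fold change was -0.26 ± 0.10 with an adjusted p of 0.139 by edgeR. In AhCk it was at 39.8, 44.4 and 46.5 CPM, all below Wt, with a log2 fold change of -0.23 ± 0.08 and an adjusted p of 0.173. In AkCh it was at 54.0, 44.7 and 45.5 CPM. The annotated spans of Top2b and of an antisense transcript on the opposite strand overlap exons of Rarb, so reads of these genes may not be told apart.

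Rarg was at 46.2, 50.1 and 55.3 CPM in Wt, 52.2, 45.4 and 44.8 CPM in AkCh, 48.9, 49.7 and 54.3 CPM in AhCk and 52.4, 55.3 and 53.0 CPM in AkCk. AkCk overlapped Wt, with a log2 fold change of 0.08 ± 0.08, the only one above 0 among the 9 genes in that comparison. It lay just above AkCh in every library, with a log2 fold change of 0.19 ± 0.11 and an adjusted p of 0.551 by edgeR. Aldh1a1, Aldh1a2, Cyp26b1 and Rarg were the 4 of 9 genes without overlap between AkCk and AkCh, where 23.0% of all genes had none. The summed receptor level stayed between 140.5 and 169.8 CPM over the 12 libraries. Per exon length, Rarg was 34.2% to 36.2% of the summed receptor level in Wt, 33.3% to 36.0% in AkCh and AhCk, and 37.8% to 40.9% in AkCk. Rara was 29.1% to 29.4% in Wt and 32.8% to 34.8% in AhCk. These shares were examined after the values were seen and were not tested.

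**Figure D4:**
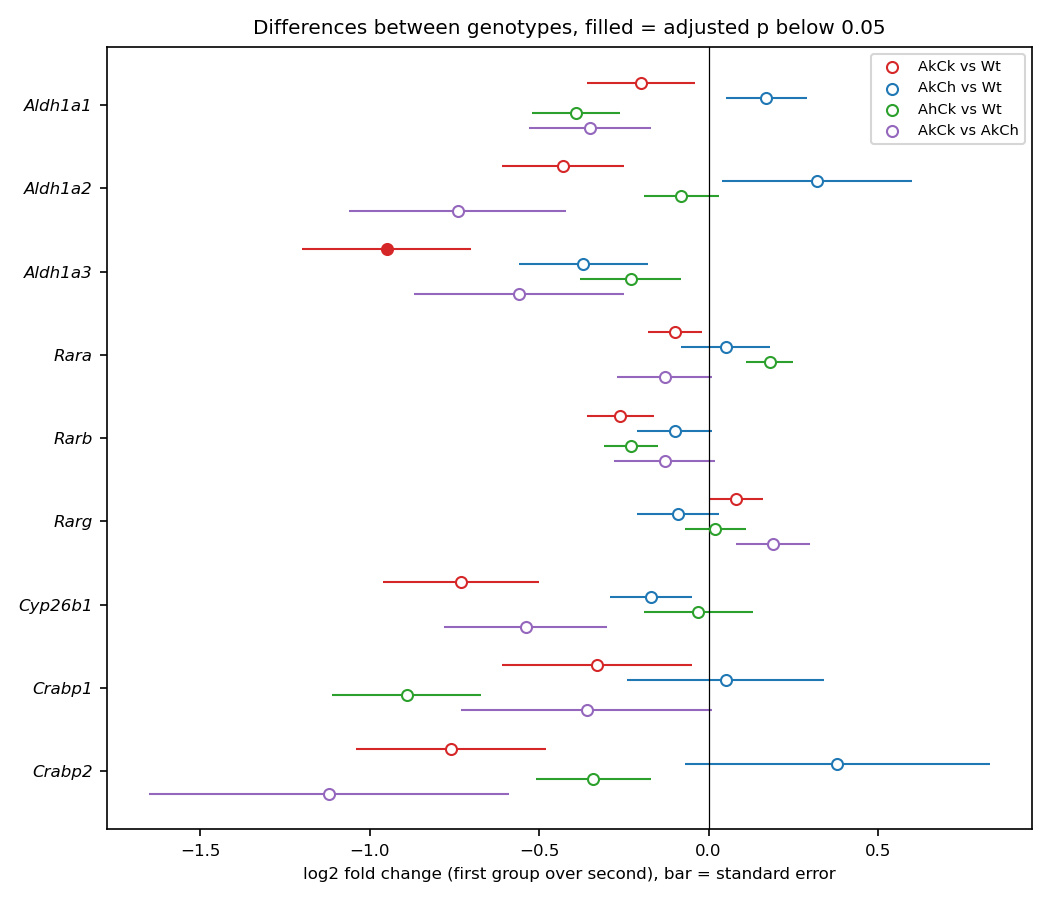
Log2 fold change of each of the 9 genes in the 4 comparisons, with bars for the standard error of edgeR's fit. The filled point is Aldh1a3 in AkCk against Wt, at -0.95, the only one with an adjusted p below 0.05.

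A wider list of 52 symbols of the vitamin A pathway set these genes in context. Of these, 50 were found, and 43 were kept by the filter in AkCk against Wt. Of the 43, 5 rose and 3 fell, against 13.7% of all genes called in either direction, and the median log2 fold change was 0.01. In AhCk against Wt 1 of 43 rose and 1 fell. In AkCh against Wt and in AkCk against AkCh none of 42 passed edgeR's test in the fit of 6 libraries, which called 0 genes of any kind there. Without AkCh_20 that fit called 687 genes in AkCk against AkCh and 8 in AkCh against Wt. With all 12 libraries in the fit 540 and 2 were called, respectively, and with the 9 libraries of run1008 181 and 0.

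Among 7 genes of retinol uptake, transport and storage, 2 rose and 1 fell in AkCk. Rbp4, the carrier of retinol in plasma, was at 3.00, 2.91 and 2.95 CPM in Wt and 7.42, 13.8 and 5.91 CPM in AkCk, with a log2 fold change of 1.61 ± 0.31 and an adjusted p of 0.0179 by edgeR. Each AkCk library was above all Wt libraries. So were the AkCh libraries, at 5.37, 4.68 and 3.72 CPM, and the AhCk libraries, at 5.20, 3.36 and 5.75 CPM, but neither difference passed. Rbp4 is made abundantly in liver, and 2 of 6 liver markers, Alb and Ahsg, rose as well. Alb averaged 0.874 CPM in Wt, 12.8 CPM in AkCh, 11.3 CPM in AhCk and 9.20 CPM in AkCk. The liver sums were 47.8 to 87.9 CPM in Wt and 69.3 to 142 CPM in AkCk. Within them Afp, which did not pass, was at 42.6 to 86.0 CPM in Wt and 62.2 to 121 CPM in AkCk. The part of liver RNA in the Rbp4 result was not tested. Rbp7, a cellular retinol-binding protein gene, was at 0.369 to 1.03 CPM in Wt and 1.37 to 2.37 CPM in AkCk, with an adjusted p of 0.0475. Stra6, the membrane receptor that takes up retinol from Rbp4, was at 17.2, 25.5 and 18.2 CPM in Wt and 10.1, 12.8 and 14.5 CPM in AkCk, with a log2 fold change of -0.71 ± 0.19 and an adjusted p of 0.0487. In the 8 other settings Rbp7 kept its call in 4, with an adjusted p of up to 0.0988, and Stra6 in 3, with up to 0.0982. Leaving out each library gave adjusted p-values of 0.0133 to 0.0725 for Rbp4, which lost its call without Wt_37 or Wt_55. They were 0.0239 to 0.141 for Rbp7 and 0.0315 to 0.160 for Stra6.

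Of 15 tested genes of retinol and retinal oxidoreductases, 1 rose in AkCk and none fell. Adh1, an alcohol dehydrogenase that oxidises retinol, was at 60.1, 54.5 and 63.6 CPM in Wt and averaged 92.3 ± 19.7 CPM in AkCk (SD, n = 3), where the lowest library was at 79.3 CPM, with a log2 fold change of 0.64 ± 0.15 and an adjusted p of 0.0302 by edgeR. Adh1 kept its call in 6 of the 8 other settings, with an adjusted p of up to 0.0728. Without Wt_37 its adjusted p was 0.110 and without Wt_55 it was 0.0789. Rdh10, the main embryonic retinol dehydrogenase, was at 39.4, 46.0 and 45.1 CPM in Wt and 47.7, 37.2 and 51.8 CPM in AkCk. Dhrs3, which returns retinal to retinol, was at 91.2, 89.6 and 92.1 CPM in Wt and 96.3, 93.5 and 87.6 CPM in AkCk. Both overlapped Wt and did not pass. Rdh19, which the study lists from these samples, spread from 4.78 to 63.9 CPM within Wt, a range that held all 3 AkCk libraries. Cyp26a1, the second gene with a printed DR5, was at 0.212, 0.300 and 0.248 CPM in Wt and 0.340, 0.153 and 0.165 CPM in AkCk, from 6 to 13 counts per library, with a log2 fold change of -0.21 ± 0.46 that did not pass.

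Among the partner receptors and co-regulators, Rxra rose in AkCk. Rxra, a partner of the retinoic acid receptors, was at 112, 97.5 and 94.9 CPM in Wt and 147, 149 and 147 CPM in AkCk, with a log2 fold change of 0.54 ± 0.08 and an adjusted p of 0.00757 by edgeR. Rxra kept its call in 6 of the 8 other settings and lost it with Xist as a covariate over all 12 libraries, with an adjusted p of 0.102, and in the fit of the 9 libraries of run1008, with 0.0880. In AhCk Rxra was at 135, 134 and 117 CPM, all above Wt, with an adjusted p of 0.103.

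Of 9 tested genes on the list of known retinoic acid targets, Tgm2 rose and Ret fell in AkCk. Ret, the receptor tyrosine kinase of the ureteric bud, was at 36.5, 39.0 and 41.0 CPM in Wt and 9.59, 7.36 and 17.3 CPM in AkCk, with a log2 fold change of -1.77 ± 0.28 and an adjusted p of 0.00958 by edgeR. It also fell in AhCk, to 24.02, 29.3 and 27.4 CPM, with a log2 fold change of -0.52 ± 0.10 and an adjusted p of 0.0435. Ret is also 1 of the ureteric tip markers above. Tgm2, a transglutaminase gene that retinoic acid induces in many cells, was at 74.9, 67.3 and 64.1 CPM in Wt and 174, 199 and 161 CPM in AkCk, with a log2 fold change of 1.37 ± 0.10 and an adjusted p of 9.2e-04. In AhCk it rose to 105, 116 and 99.4 CPM, with an adjusted p of 0.0196. In AkCh it was at 106, 93.5 and 101 CPM, above every Wt library, with an unadjusted p of 0.00177 and an adjusted p of 1.00. Tgm2 is on the study's list from these samples, so its direction is not independent evidence. Tgm2 and Ret, the 2 genes of this target list that passed in AkCk, moved in opposite directions. Which genes count as targets depends on how the list was drawn. Rarb, also a known target, was counted among the 9 genes followed here and did not pass. Both kept their AkCk calls in every alternative run, and in AhCk Ret was called in 3 of the 7 other settings and Tgm2 in 6 of 7. With a library left out, the adjusted p in AhCk was 0.0399 to 0.203 for Ret, which passed only without Wt_30, and 0.0194 to 0.132 for Tgm2, which did not pass without Wt_37, Wt_55 or AhCk_110.

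**Figure D5:**
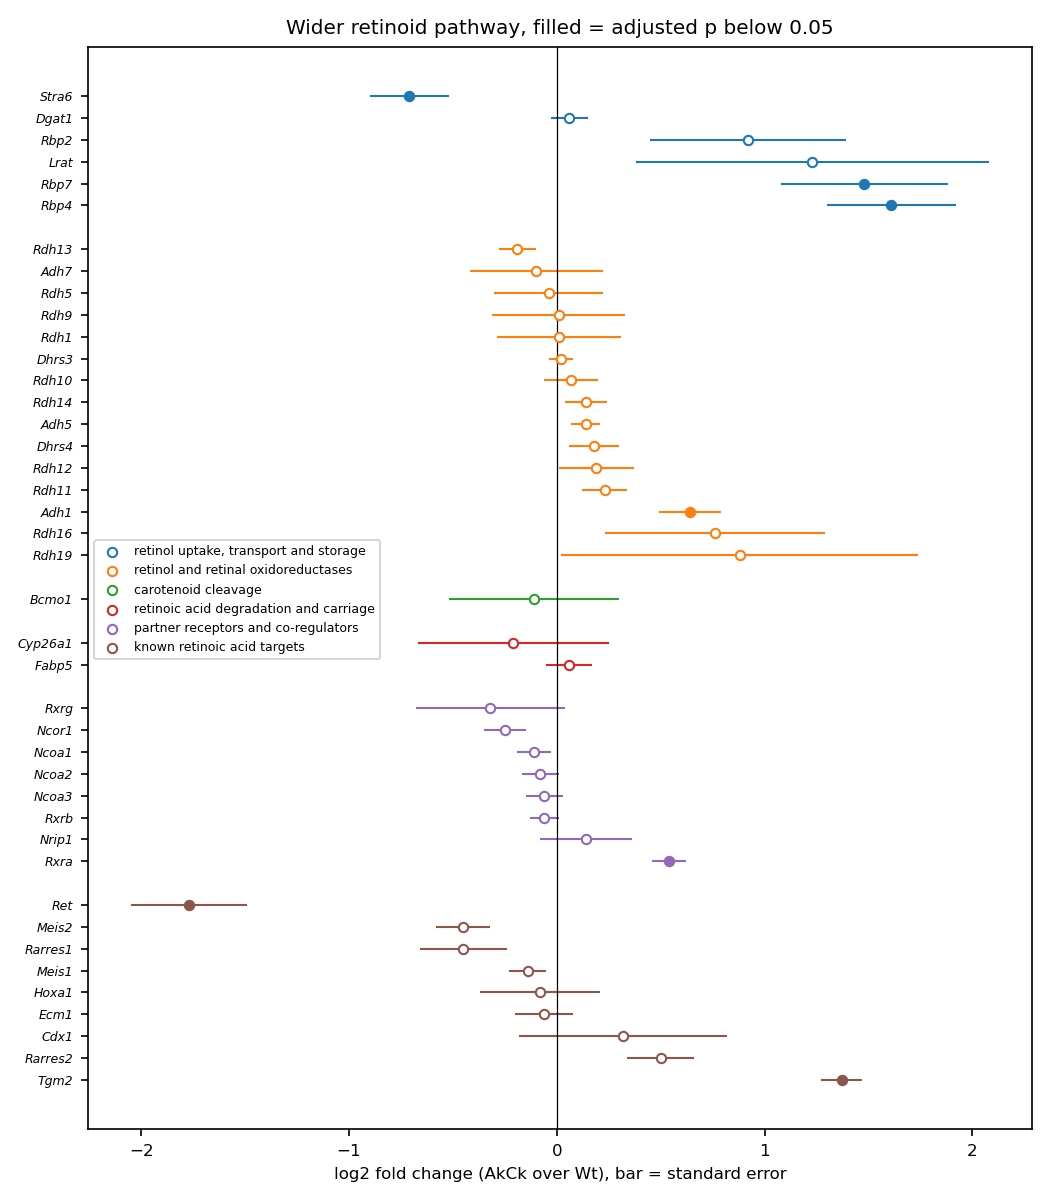
Log2 fold change of AkCk over Wt for tested genes of the wider list that are reported here, grouped by role, with bars for the standard error of edgeR's fit. Filled points passed the threshold, 5 to the right of 0 and 2 to the left.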

How the data were processed

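Whole kidneys at E18.5 were sequenced on TruSeq libraries, paired-end. Per the study's methods, the authors aligned reads to mm10 in Strand NGS and removed reads with more than 1 alignment. The authors deposited estimated counts per gene (expected counts). They also deposited log2 values normalised and centred on each gene's median. The software version is not given in the sources used here. The study's Audic-Claverie test has no term for replicate spread. Rounded counts therefore entered edgeR 4.0.16 (R 4.3.3), with TMM factors, filterByExpr, quasi-likelihood fits on the 6 libraries of each comparison and Benjamini-Hochberg adjustment over all genes. For 92 symbols listed more than once, the row with most reads kept the symbol. Exon lengths came from GENCODE release 21, and gene positions and promoter windows from RefSeq. Every one of the 9 genes was named, and of the wider list each gene past the threshold and up to 6 others for their role. Some genes of that list are included in its counts but not reported here by name. Members and lists were chosen with earlier results of these data known.

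On simulated counts for AkCk against Wt (15698 genes), 78 of 100 genes changed by 1 on the log2 scale and 98 of 100 changed by 2 were recovered, with 9 false calls. Alternatives were DESeq2 1.42.0, limma 3.58.1 on the deposited log2 values, other scalings, a minimum of 1 count, wider sets of libraries, Xist as covariate, and leaving out each library. Total counts set the counting error and ranged from 28616878 to 47067926 per library. Figures were drawn with matplotlib 3.10.9.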

Additional observations from a re-analysis of the deposited data

How the results depend on the processing

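Genes called in AkCk against Wt numbered 2171 in the reported fit and 3312 with DESeq2, 1190 with all 12 libraries in the fit, 1009 with Xist as covariate, 1215 with limma and 690 with the 9 libraries of run1008. Leaving out each library gave 535 to 3386. Of the 9 genes, DESeq2 called 3, and the fits with all 12 libraries, limma and the 9 libraries of run1008 called 0, as Aldh1a3 then had an adjusted p of 0.0606, 0.0854 and 0.0982. Leaving out each library called 0 to 1. The split of higher and lower calls was 999 and 1172 with TMM, 1074 and 1070 with RLE factors and 742 and 1649 with library size only, where the median gene moved to -0.07.

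In AkCh against Wt 0 genes were called, and 18 by DESeq2, 2 with all 12 libraries, 1 by limma and 0 to 8 with a library left out, the 8 without AkCh_20. In AhCk against Wt 376 were called, and 1284 by DESeq2, of which 1 was among the 9 genes, 149 with all 12 libraries, 134 with Xist, 158 by limma and 60 to 549 with a library left out. In AkCk against AkCh 0 were called, and 489 by DESeq2, 1 with a minimum of 1 count, 540 with all 12 libraries, 651 with Xist, 1 by limma, 181 with the 9 libraries and 0 to 687 with a library left out, the 687 without AkCh_20. The cause was not tested.

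Signs turned for uncalled differences only. In AkCh against Wt, library size only gave -0.04 for Rara and -0.04 for Crabp1. In AhCk against Wt, the Xist fit gave 0.06 for Aldh1a2 and 0.01 for Cyp26b1. Leaving out each library gave, in AkCh against Wt, -0.07 to 0.11 for Rara, -0.16 to 0.30 for Crabp1, -0.06 to 0.50 for Aldh1a2 and -0.35 to 0.65 for Crabp2, and in AhCk against Wt -0.13 to 0.12 for Cyp26b1, -0.05 to 0.09 for Rarg and -0.22 to 0.67 for Rbp7. No paired analysis was possible because the groups share no replicate numbers. Depth limits Crabp1, with 89 to 311 counts per library.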
